A study of Mus musculus with 48 samples.

Results

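Oxidative phosphorylation is carried out by 5 protein complexes of the inner mitochondrial membrane whose subunits are encoded by 2 genomes, and the RNA of those subunits was followed here in mouse liver with damaged or missing LXRα. Members were the protein-coding genes whose symbol begins with Nduf, Uqcr, Atp5, Cox4, Cox5, Cox6, Cox7 or Cox8, together with Sdha, Sdhb, Sdhc and Sdhd and the 13 protein-coding genes of the mitochondrial genome, provided that their mean CPM (counts per 1000000 reads on genes) over the 48 livers was at least 1. Of 111 such genes, 102 met the minimum, out of 55416 genes in the count tables, and 89 of these were nuclear and 13 mitochondrial. The nuclear members comprised 37 subunits and 8 assembly factors of complex I, 4 subunits of complex II and 8 of complex III. By symbol 14 members were assigned to complex IV, including Cox5b-ps and Cox7a2l, and 18 to complex V, the ATP synthase, including its inhibitor gene Atp5if1. The mitochondrial members comprised 7 subunits of complex I, 1 of complex III, 3 of complex IV and 2 of complex V. Closest below the minimum were Cox7a1 at 0.942 CPM and Cox6b2 at 0.265 CPM, and closest above it were Ndufa4l2 at 1.37 CPM and Cox5b-ps at 2.99 CPM. All 102 members passed the low-count filter of the test.

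The study put mice of an LXRα W441R knock-in line and of an LXRα knockout line on a western diet with 0.2% cholesterol for 8 weeks, from 8 weeks of age, and sequenced liver RNA from 8 wild-type, 8 heterozygous and 8 homozygous animals of each line, named DN:WT, DN:HET, DN:HOM, KO:WT, KO:HET and KO:HOM. LXRα, encoded by Nr1h3, is a sterol-activated nuclear receptor, and the W441R substitution lies in its ligand-binding domain and makes it dominant negative. Every group, the wild-type ones included, received this diet. The knock-in was made by genome editing in C57BL/6J embryos and bred from the offspring of a founder, and the knockout came from a mixed Sv129 and C57Bl/6 background backcrossed for more than 10 generations to C57BL/6, while the labels give C57Bl/6J for both. The knock-in mice were male, and the sequenced livers of both lines were taken at 16 weeks of age. Both alleles are present in every cell of the body, and each line has its own wild-type livers. The knock-in work was overseen at the University of Cambridge and the knockout work at UCLA. The line, its background, its site and its cohort thus cannot be told apart between the lines. The study also split the mice of a line into cohorts, which are not known for these livers and are not in the fit.

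Electrons from NADH enter the chain at complex I and those from succinate at complex II, pass through complex III and cytochrome c, and reach oxygen at complex IV, and the proton gradient built on the way drives ATP synthesis by complex V. Complex II is the only one of these complexes with no subunit from the mitochondrial genome, and it also serves as succinate dehydrogenase in the citric acid cycle. Hepatocytes are rich in mitochondria, and transcripts of the mitochondrial genome make up a sizeable part of liver polyadenylated RNA.

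Reads counted on genes ranged from 5332897 to 16961379 per liver with a median of 15879972. The library labelled DN:WT animal 10 and the library labelled DN:HOM animal 12 went against their labels, each holding levels of nuclear members such as Sdhb typical of the other genotype, and the results below rest on the other 46 livers, 7 in each of these groups, with the values over all 48 beside them. Sdhb stood at 112 CPM in the library labelled DN:WT animal 10 and at 200.1 CPM in the library labelled DN:HOM animal 12, and the mean log2 CPM of the mitochondrial members, 8.16 and 8.74, lay within the range of the other genotype in both. As a share of reads, the mitochondrial members took 5.62% and 6.37%, both within the DN:WT range. Setting livers aside by levels that are then tested narrows the spread in DN:WT and DN:HOM. The SE and p-values over the 46 livers can therefore be too small, and the changes too large. Nr1h3, the targeted gene, fell by 1.80 on the log2 scale in KO:HOM and by 0.32 in DN:HOM (adjusted p = 3.31e-27 and 1.47e-05, edgeR). The libraries were scaled by the trimmed mean of M-values (TMM), and all CPM of single genes below are on that scale. The scaling factors differed between the groups, with a median of 1.29 in DN:HOM against 0.949 in DN:WT over all 48 livers, so each change below is relative to the bulk of the genes. With library size alone the median of all genes tested moved from -0.01 to 0.42 in DN:HOM, from -0.02 to 0.09 in KO:HOM and from 0.00 to 0.31 in the difference between the lines (log2).

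The 13 mitochondrial members differed widely in level, and 6 of them lie inside a stretch that has a copy in chromosome 1. In GRCm39, MT:6390-11042 matched chr1:24650616-24655269 on the minus strand with 4651 identical positions of 4654 aligned. The whole of mt-Co2, mt-Atp8, mt-Atp6, mt-Co3, mt-Nd3 and mt-Nd4l lies inside this stretch, as do 31.3% of mt-Co1 and 63.6% of mt-Nd4, and none of mt-Nd1, mt-Nd2, mt-Nd5, mt-Nd6 or mt-Cytb. The counts hold reads that mapped to a single place. The pairs of stretches below, 60 bases each and read 5′ to 3′ on the plus strand of the mitochondrial genome, show where the match begins, a part of it and where it ends, with bases that are identical within the match in capitals.
mt-Co1 on MT:6360-6419: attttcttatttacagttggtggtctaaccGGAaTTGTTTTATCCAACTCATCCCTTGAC
copy on chr1:24655240-24655299: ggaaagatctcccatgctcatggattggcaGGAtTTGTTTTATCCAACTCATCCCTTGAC
mt-Co2 on MT:7013-7072: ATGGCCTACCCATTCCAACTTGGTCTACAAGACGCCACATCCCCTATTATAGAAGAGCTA
copy on chr1:24654587-24654646: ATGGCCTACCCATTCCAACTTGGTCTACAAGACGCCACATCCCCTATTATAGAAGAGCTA
mt-Nd4 on MT:11013-11072: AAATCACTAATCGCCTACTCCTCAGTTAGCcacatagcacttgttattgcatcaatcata
copy on chr1:24650586-24650645: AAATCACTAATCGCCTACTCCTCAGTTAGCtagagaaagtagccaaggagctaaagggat
The first 60 bases of mt-Co2, the gene of the copper-binding subunit of complex IV that takes electrons from cytochrome c, were the same in both places at 60 of 60 positions.

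Outside the copy, mean levels over the 48 livers ran from 128 CPM for mt-Nd6, the gene on the opposite strand, through 5931 for mt-Nd1 and 7221 for mt-Nd2, to 11340 for mt-Cytb. The partly covered mt-Co1, the catalytic core of complex IV, stood highest at 23940 CPM, whereas the 6 genes inside the copy lay between 5.62 CPM (mt-Nd4l) and 67.0 CPM (mt-Co2). Their counts can come from the few places where a read is unique, so these levels do not give the abundance of the RNA, and the part of the copy in them was not tested.

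**Figure D1:**
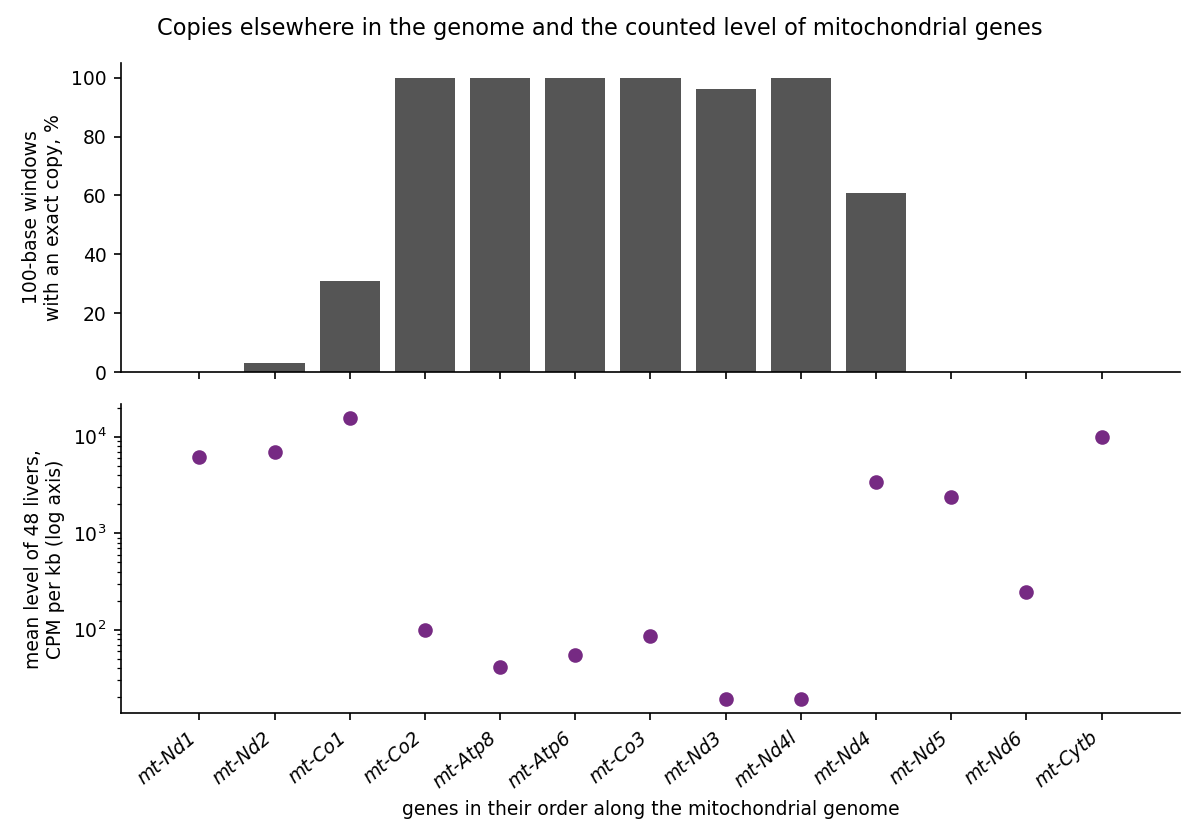
Share of the 100-base windows of each of the 13 mitochondrial members that also occur elsewhere in the genome (top, percent), and its level (bottom, mean CPM per kilobase of transcript over the 48 livers, log axis). Genes stand in their order along the mitochondrial genome. The 6 genes with copies in over 90% of windows lie below 100 CPM per kilobase, and mt-Nd6 is the lowest of the genes without copies.

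Promoters were read from RefSeq (GRCm38.p6), 250 bases before to 50 after the start, for 73 of the 89 nuclear members. On either strand, GCGCANGCG, the letters of an NRF1 site, occurred in 22 of the 73 (30.1%) and in 6.47% of all 27025 promoters, CCGGAAG, the letters of a GABPA or other ETS site, in 23.3% and 9.12%, AAGATGGC, the letters of a YY1 site, in 13.7% and 2.88%, and TNAAGGTCA, the letters of an ERR response element, in 4.11% and 1.26%. NRF1 and GABPA are factors known for driving nuclear genes of the respiratory chain. Of the 73, 32 held none of the 4. The 120 bases before the start are shown for the complex II subunits with an entry, among them Sdhb and Sdha, which had the most negative changes of the nuclear members in DN:HOM, and for Atp5if1 and Cox7a2l, which were not lower, with NRF1 and GABPA letters in capitals.
Sdha on chr13:74350241-74350360, minus strand: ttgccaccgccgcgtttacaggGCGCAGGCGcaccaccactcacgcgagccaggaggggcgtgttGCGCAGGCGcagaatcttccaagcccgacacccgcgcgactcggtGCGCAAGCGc
Sdhb on chr4:140961151-140961270, plus strand: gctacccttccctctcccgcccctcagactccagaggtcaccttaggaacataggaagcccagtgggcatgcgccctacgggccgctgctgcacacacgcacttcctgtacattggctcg
Sdhd on chr9:50603850-50603969, minus strand: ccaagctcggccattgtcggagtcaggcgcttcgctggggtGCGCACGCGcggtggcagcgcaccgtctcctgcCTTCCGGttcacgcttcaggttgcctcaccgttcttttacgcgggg
Atp5if1 on chr4:132535415-132535534, minus strand: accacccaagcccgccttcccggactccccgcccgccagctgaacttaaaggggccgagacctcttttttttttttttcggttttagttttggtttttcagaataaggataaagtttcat
Cox7a2l on chr17:83514334-83514453, minus strand: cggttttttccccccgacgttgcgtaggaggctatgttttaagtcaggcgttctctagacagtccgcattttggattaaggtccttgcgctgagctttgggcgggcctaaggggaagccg
Sdha held 3 NRF1 matches in this stretch and Sdhd 1 of each kind, while Sdhb held a GABPA match only after the start and Atp5if1 an NRF1 match only further upstream. A match here describes letters and is not a site shown to be bound.

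In DN:HOM liver, the RNA of all 13 mitochondrial members and of 78 of 89 nuclear members was lower than in DN:WT at an adjusted p below 0.05 (edgeR quasi-likelihood test), where 30% of all 15711 genes tested were lower. The median log2 change was -0.88 over the mitochondrial and -0.47 over the nuclear members, beside -0.01 over all genes. Of the other nuclear members, Atp5if1 was higher, where 29.1% of all genes were, and 10 did not pass. Over all 48 livers, 13 mitochondrial and 76 nuclear members were lower, where 25.0% of all genes were. The nuclear result depended on the scaling: with library size alone 14 nuclear members were lower and 12 higher (11.1% and 59.1% of all genes), with a median of -0.04, against 11 mitochondrial members lower and a median of -0.45.

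**Figure D2:**
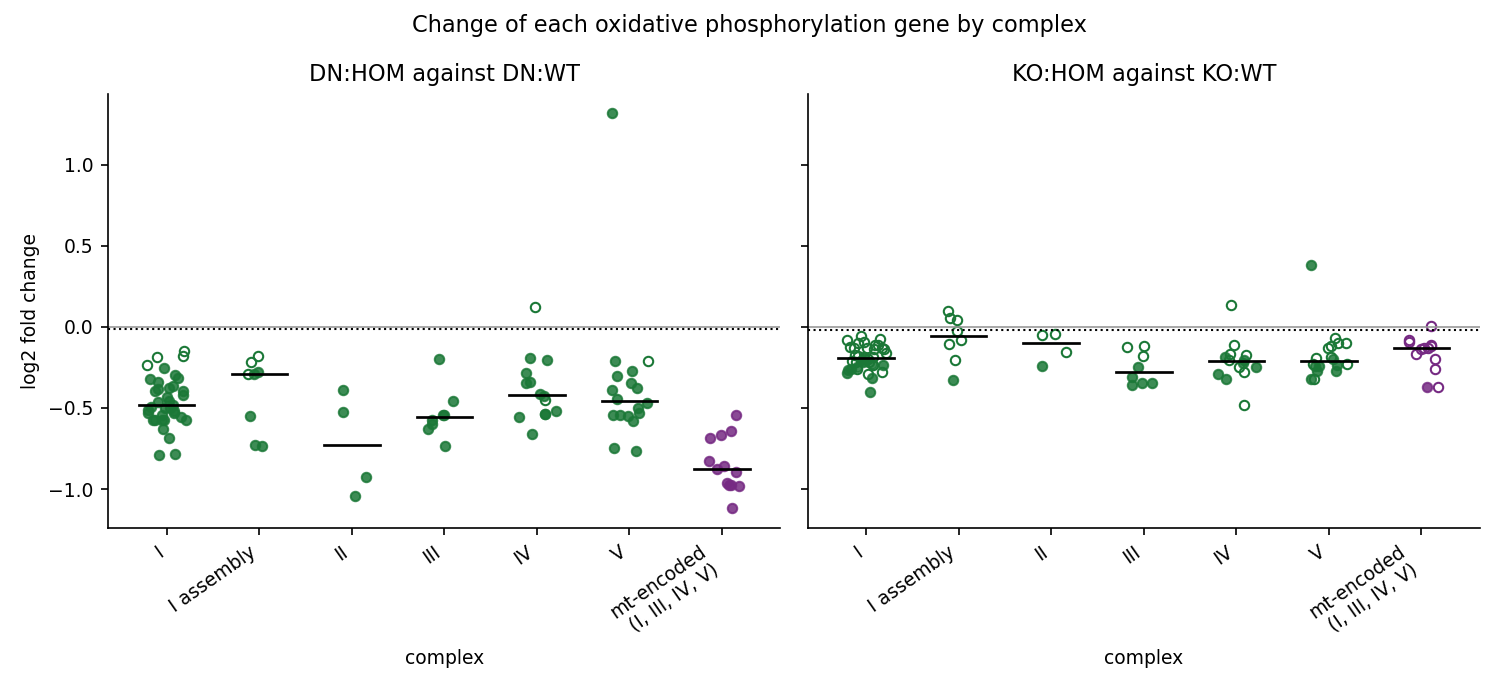
Log2 fold change of each member in DN:HOM against DN:WT and in KO:HOM against KO:WT, by complex and genome, over 46 livers, with filled points for members at an adjusted p below 0.05, bars at the median of each set and a dotted line at the median of all genes. In DN:HOM every mitochondrial member lies between -1.12 and -0.55, and Sdhb and Sdha lie below every other nuclear member.

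mt-Cytb, the cytochrome b of complex III and a gene outside the copy, is on MT:14145-15288. It had lowest, median and highest values of 11692, 13079 and 15497 CPM in DN:WT and of 5126, 6968 and 8526 CPM in DN:HOM. Every DN:HOM liver of the 46 lay below every DN:WT liver. The log2 change was -0.96 ± 0.11 (SE, adjusted p = 1.72e-10, edgeR), and over all 48 livers -0.72.

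mt-Co1, on MT:5328-6872, ranged from 21087 to 30076 CPM in DN:WT and from 12030.5 to 17379.8 CPM in DN:HOM, a log2 change of -0.88 ± 0.10 (SE). mt-Nd5, a membrane subunit of complex I, ranged from 3597 to 5344 CPM and from 1416 to 2653 CPM, a change of -0.97 ± 0.12 (SE). In both genes the groups did not overlap, which also held for mt-Nd2, mt-Nd4 and mt-Co2. mt-Nd6, the only member on the other strand, changed by -0.98 ± 0.15 (SE), with ranges that overlapped (79.7, 140.2 and 192 CPM against 54.4, 70.6 and 94.5 CPM). The smallest change was that of mt-Nd1 at -0.55 ± 0.10 (SE) and the largest that of mt-Nd4l at -1.12 ± 0.20 (SE), a gene counted at 3.07, 7.14 and 9.68 CPM in DN:WT and 2.12, 3.30 and 3.75 CPM in DN:HOM.

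Genes with and without copied windows were both lower, with a median log2 change of -0.97 over the 4 members with no copied window, mt-Nd1, mt-Nd5, mt-Nd6 and mt-Cytb, and of -0.84 over the 6 with copies in over 90% of windows. The difference between these sets was not tested. mt-Nd2 changed by -0.64, mt-Nd3 by -0.67, mt-Nd4 by -0.90, mt-Co2 by -0.85, mt-Co3 by -0.69, mt-Atp6 by -0.82 and mt-Atp8 by -0.97 on the log2 scale.

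Of the nuclear parts of the complexes, complex II had the lowest median at -0.73, with all 4 subunits lower. Sdhb, the iron-sulfur subunit, lies at chr4:140688502-140709380 (GRCm39). It had lowest, median and highest values of 191, 206 and 249.7 CPM in DN:WT, 160.3, 205 and 225 CPM in DN:HET and 86.7, 102 and 119.9 CPM in DN:HOM. DN:HOM was clear of both other groups of the line, and DN:HET overlapped DN:WT. The log2 change was -1.05 ± 0.08 (SE, adjusted p = 2.56e-14, edgeR), and -0.81 over all 48 livers.

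Sdha, the flavoprotein subunit that oxidises succinate, lies at chr13:74469359-74498436 and stood at 447, 551 and 614 CPM in DN:WT and at 247, 289 and 329 CPM in DN:HOM, a log2 change of -0.92 ± 0.10 (SE). The groups did not overlap. The membrane anchors moved less, Sdhc by -0.39 ± 0.06 and Sdhd by -0.53 ± 0.09 (SE), and with library size alone Sdhc stood at 0.04 and Sdhd at -0.10, neither past the threshold, whereas Sdhb (-0.62) and Sdha (-0.49) were lower on that scale too.

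**Figure D3:**
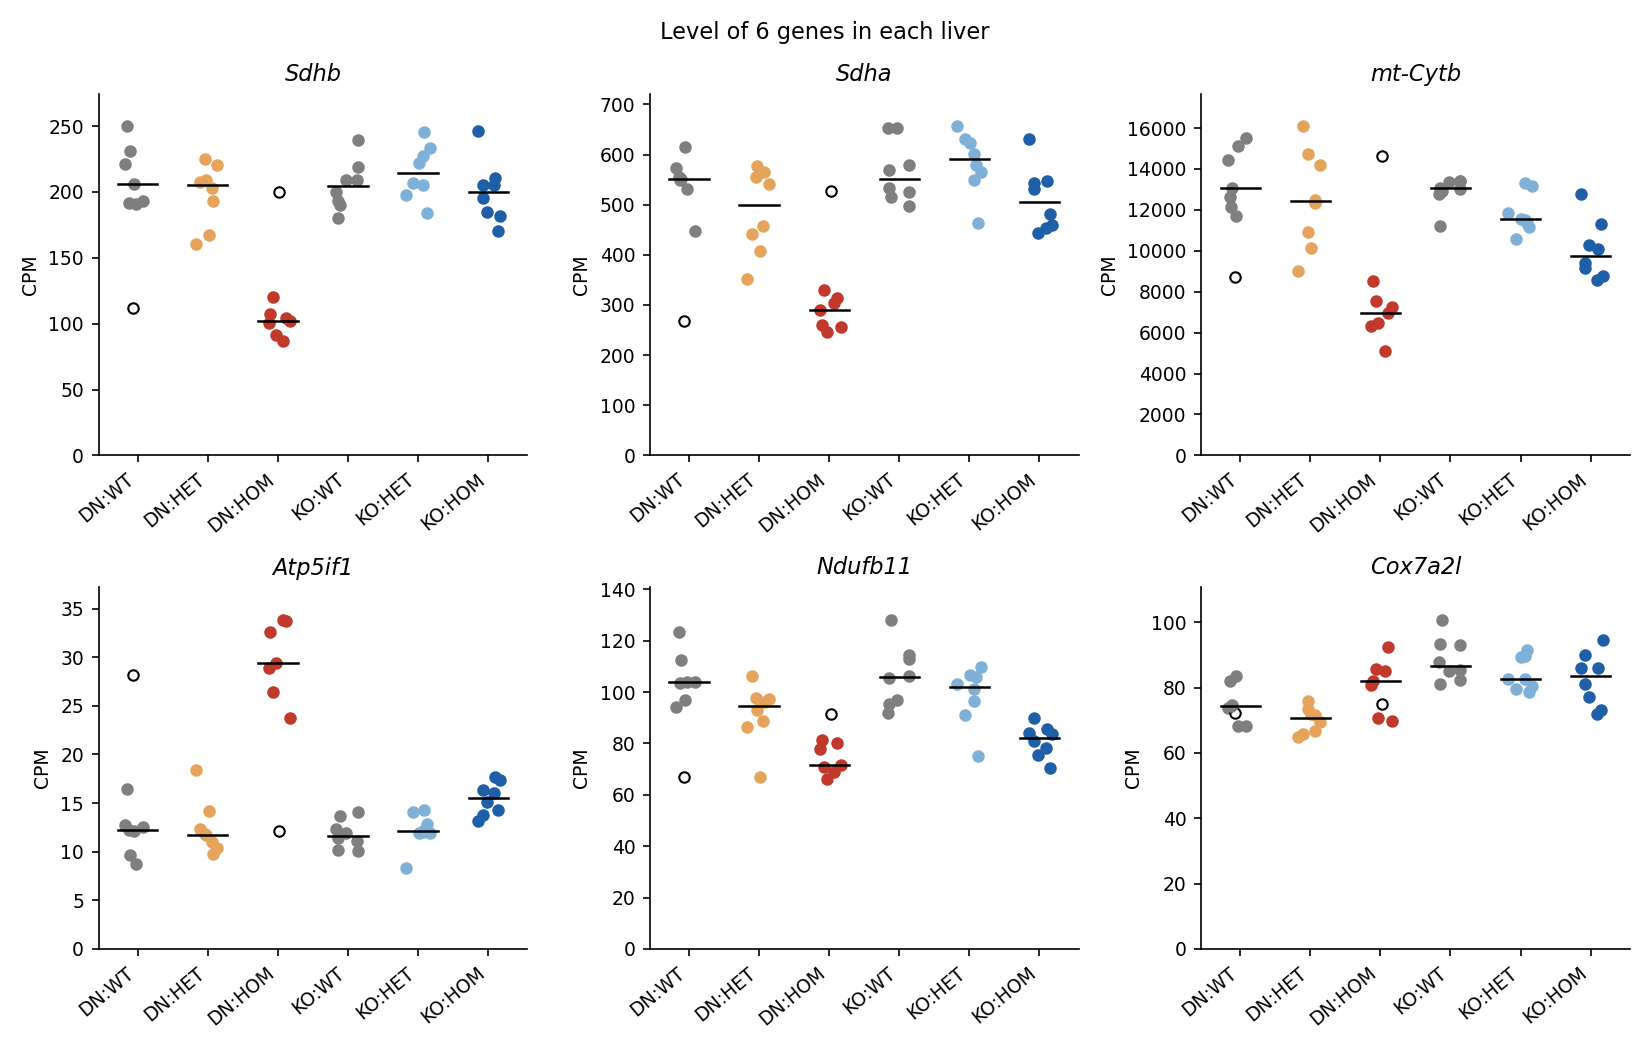
CPM of Sdhb, Sdha, mt-Cytb, Atp5if1, Ndufb11 and Cox7a2l in each of the 48 livers by genotype group, with lines at the group medians over 46 livers and open black circles for the 2 livers set aside. Sdhb lies at 86.7 to 119.9 CPM in DN:HOM and at 170.1 CPM or higher in every KO:HOM liver.

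In complex I, 33 of 37 nuclear subunits were lower (median -0.48), the 7 core subunits all among them (median -0.54). Ndufs1, the largest iron-sulfur subunit, fell by 0.79 on the log2 scale, and Ndufa10 by 0.79. Ndufs4, Ndufa2, Ndufb4 and Ndufb2 did not pass the threshold, with changes from -0.23 to -0.15. With library size alone 5 of the 37 were lower, 2 of them core subunits, and 3 were higher, Ndufs4 (0.28) and Ndufb4 (0.24) among these, and Ndufa2 and Ndufb2 turned to 0.25 and 0.20. Of the 8 assembly factors 5 were lower (median -0.29), led by Ndufaf1 at -0.73 and Ndufaf4 at -0.73, and 2 were lower with library size alone. The single genes given here for complexes I, III and V were named after their values were seen.

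In complex III all 8 nuclear subunits were lower (median -0.56), from Uqcrh at -0.20 to the core protein Uqcrc1 at -0.73, but with library size alone 2 were lower and Uqcrh was higher (0.23). In complex IV 12 of 14 members were lower (median -0.42), and with library size alone none was lower and 4 were higher. In complex V 16 of 18 members were lower (median -0.46), the catalytic subunits Atp5f1a (-0.76) and Atp5f1b (-0.53) among them, and with library size alone 3 were lower and 4 higher.

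Atp5if1 went the other way. It encodes the inhibitor that blocks ATP synthase when the enzyme would run backwards, and lies at chr4:132257215-132262823. Its lowest, median and highest values were 8.76, 12.2 and 16.5 CPM in DN:WT, 9.78, 11.8 and 18.4 CPM in DN:HET and 23.8, 29.4 and 33.8 CPM in DN:HOM. No DN:HOM liver overlapped the other groups of the line. The log2 change was 1.32 ± 0.12 (SE, adjusted p = 1.47e-12, edgeR), 0.97 over all 48 livers and 1.75 with library size alone. It was the single nuclear member whose DN:HOM livers all exceeded the DN:WT livers, where 17.8% of all genes did, while 44 nuclear and 6 mitochondrial members lay wholly below, where 15.8% did. Setting aside the 2 livers bears on this separation, since they were set aside for their expression pattern. With those livers included the ranges of all 102 members overlapped, where 0.0636% of all genes lay wholly below and 0.0509% wholly above.

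The 2 genomes were also compared as shares of the reads on genes, which do not depend on the scaling. Mitochondrial members took a median of 5.88% of reads in DN:WT (5.09% to 7.12%) and 4.58% in DN:HOM (3.67% to 5.61%), and the ranges overlapped. Nuclear members took 1.17% (1.09% to 1.37%) and 1.15% (1.02% to 1.23%). The nuclear share thus moved little, and the ratio of mitochondrial to nuclear reads went from a median of 4.96 (4.20 to 6.18) to 4.0 (3.30 to 4.59). Over all 48 livers the medians were 5.81% and 4.63% for mitochondrial members and 1.16% and 1.13% for nuclear members. In the other groups the mitochondrial medians were 5.97% in DN:HET, 5.92% in KO:WT, 5.61% in KO:HET and 5.44% in KO:HOM, and the nuclear medians lay between 1.12% and 1.17%. The mean log2 CPM of nuclear members minus that of mitochondrial members had a median of -2.26 in DN:WT and -1.91 in DN:HOM, of -2.35 in DN:HET, and of -2.19, -2.20 and -2.26 in KO:WT, KO:HET and KO:HOM. Over the 4 mitochondrial members with no copied window the medians were -4.97, -5.02 and -4.59 in DN:WT, DN:HET and DN:HOM and -5.09, -5.08 and -4.99 in KO:WT, KO:HET and KO:HOM, so the KO:HOM median lay below that of KO:WT in the first measure and above it in the second. The narrower distance in DN:HOM is a description, held in both measures, and its ranges overlapped those of DN:WT.

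**Figure D4:**
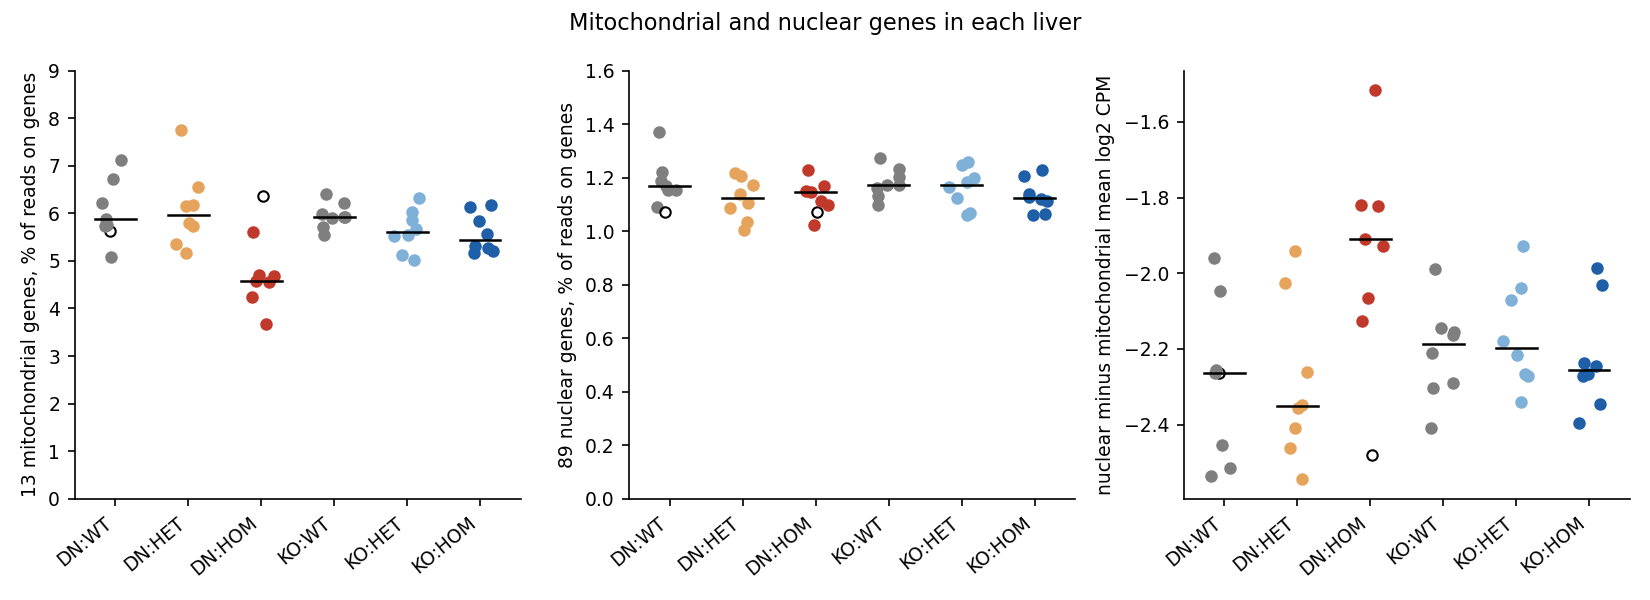
Share of the reads on genes (percent) taken by the 13 mitochondrial members (left) and by the 89 nuclear members (middle), and mean log2 CPM of nuclear minus mitochondrial members (right), in each of the 48 livers, by genotype group, with lines at medians over 46 livers and open black circles for the 2 livers set aside. The mitochondrial share is lowest in DN:HOM, with a median of 4.58%, while the nuclear share has medians from 1.12% to 1.17% in the 6 groups.

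In KO:HOM the median changes were smaller. Of 89 nuclear members 31 were lower than in KO:WT, where 7.87% of all genes tested were, and Atp5if1 alone was higher, where 11.5% were. The median log2 change was -0.20 over nuclear and -0.13 over mitochondrial members, beside -0.02 over all genes. mt-Cytb was the only mitochondrial member past the threshold. Over all 48 livers the count of lower nuclear members was 10 and of mitochondrial members 0, where 4.12% of all genes were lower, although no knockout liver differs between these fits. Each fit estimates the spread of a gene over all groups together, and the part of this in the lower counts was not tested. With library size alone 4 nuclear members were lower, Ndufb11, Ndufv3, Uqcr10 and Uqcrq, where 2.78% of all genes were, and mt-Cytb and Atp5if1 kept their calls.

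All 31 nuclear members lower in KO:HOM were also lower in DN:HOM, where 78 of 89 nuclear members were lower, and they are 39.7% of those 78. Over all genes, 859 of the 1237 lower in KO:HOM (69.4%) were also lower in DN:HOM. These are 18.2% of the 4713 lower there, out of 15711 genes tested. Since most nuclear members were lower in DN:HOM, a large overlap follows from that share, and any sharing beyond it was not tested. The 31 comprised 11 complex I subunits and the assembly factor Ndufaf2, 1 subunit of complex II (Sdhd), 5 of complex III, 6 of complex IV and 7 of complex V.

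The largest fall among these 31 was that of Ndufb11, an accessory subunit of complex I at chrX:20481563-20484457. It stood at 91.8, 106 and 128 CPM (lowest, median and highest) in KO:WT, 75.3, 102 and 109.7 CPM in KO:HET and 70.3, 82.3 and 90.1 CPM in KO:HOM. It was the single member whose KO:HOM livers all lay below the KO:WT livers, where 0.369% of all genes did, and none lay wholly above, where 2.18% did. The log2 change was -0.40 ± 0.08 (SE, adjusted p = 0.000152, edgeR), and -0.50 ± 0.08 in DN:HOM. mt-Cytb ranged from 11235 to 13386 CPM in KO:WT and from 8571 to 12789 CPM in KO:HOM, a change of -0.37 ± 0.10 (SE, adjusted p = 0.00511, edgeR) that over all 48 livers had an adjusted p of 0.0739.

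The next falls were small subunits of complex III, Uqcrb at -0.36 ± 0.11, Uqcr10 at -0.35 ± 0.09 and Uqcrq at -0.34 ± 0.09 (SE, log2), of which Uqcrb lost its call in the fit of 48 livers (adjusted p = 0.0558, edgeR) and with library size alone (adjusted p = 0.104). Atp5if1 rose by 0.38 ± 0.11 (SE, adjusted p = 0.0141, edgeR), from 10.1, 11.6 and 14.1 CPM in KO:WT to 13.2, 15.5 and 17.7 CPM in KO:HOM, with overlapping ranges. Over all 48 livers its adjusted p was 0.128. Sdhb and Sdha stood at -0.04 ± 0.08 and -0.15 ± 0.09 (SE) in KO:HOM, and neither passed the threshold.

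The effects of the 2 alleles were compared directly as the change in the knock-in minus that in the knockout. The 12 mitochondrial members other than mt-Nd3 and 28 nuclear members fell further in DN:HOM, where 18.3% of all genes tested did, and 2 nuclear members, Atp5if1 and Cox7a2l, were relatively higher, where 16.5% were. The median of the difference was -0.64 over mitochondrial and -0.25 over nuclear members, beside 0.00 over all genes. Over all 48 livers 2 mitochondrial and 9 nuclear members had a more negative effect, where 6.42% of genes did, and neither Atp5if1 nor Cox7a2l passed (adjusted p = 0.0988 and 0.0984, edgeR). With library size alone 6 mitochondrial and 8 nuclear members did (8.50% of all genes), 14 nuclear members went the other way (37.7%), and the nuclear median was 0.06.

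The most negative differences were those of mt-Nd4l at -1.12 ± 0.28, Sdhb at -1.0 ± 0.11, mt-Atp8 at -0.86 ± 0.27 and mt-Nd5 at -0.84 ± 0.17 (SE, log2). When the 2 livers were included, mt-Nd4l and mt-Atp8 lost their calls (adjusted p = 0.106 and 0.202, edgeR), as did mt-Atp8 with library size alone. Sdhb, Sdha and Sdhc fell further in DN:HOM, Sdha by -0.77 ± 0.13 (SE), while Sdhd did not differ past the threshold (-0.28 ± 0.13, adjusted p = 0.0742, edgeR). Sdhb and Sdha kept a difference past the threshold over all 48 livers (-0.77 and -0.55) and with library size alone (-0.69 and -0.45), whereas Sdhc (-0.27 and -0.02) kept it in neither.

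**Figure D5:**
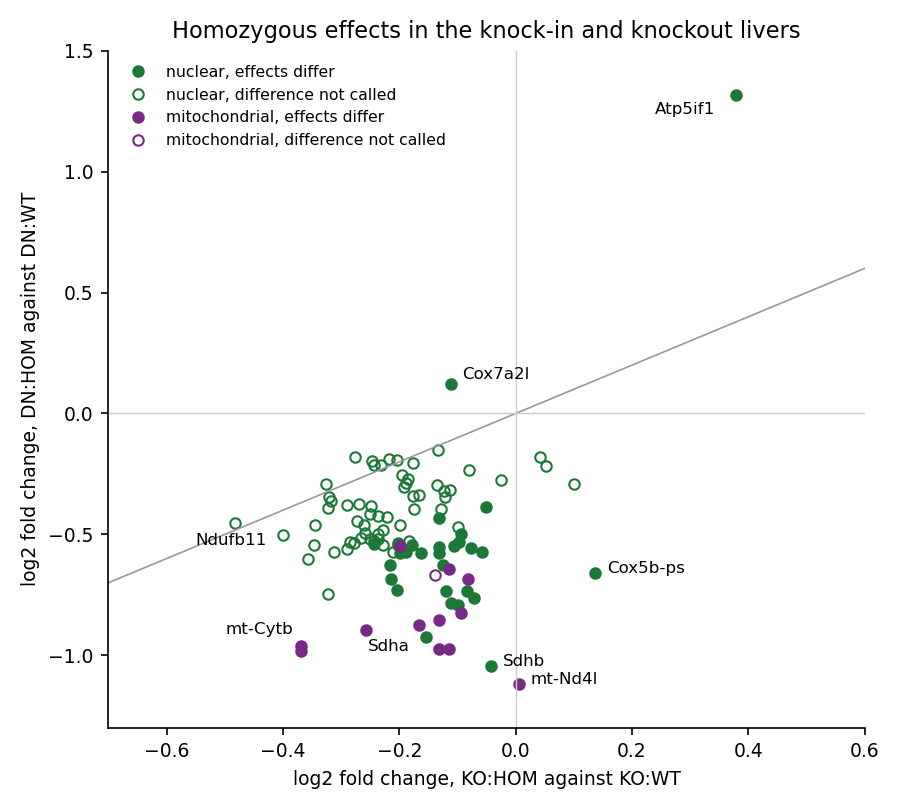
Log2 fold change of each member in KO:HOM against KO:WT (horizontal) and in DN:HOM against DN:WT (vertical) over 46 livers, with filled points for members whose effects differed at an adjusted p below 0.05 and a grey line where both effects are equal. Most members lie below the line, Sdhb and mt-Nd4l far below it at changes in KO:HOM near zero and mt-Cytb at a change of -0.37 there, and Atp5if1 lies alone at the upper right.

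In the heterozygous livers none of the 102 members passed the threshold in edgeR or in DESeq2 in either line, where 2.30% of all genes did in DN:HET and 0.0191% in KO:HET (edgeR). At an unadjusted p below 0.05 edgeR gave 18 nuclear and 1 mitochondrial members in DN:HET and 0 nuclear and 1 mitochondrial in KO:HET, where 13.3% and 6.24% of all genes did. In DN:HET, 88 of 89 nuclear members lay below zero with a median of -0.14, where 53.1% of all genes did with a median of -0.01, and the mitochondrial median was -0.12. In the fit of 48 livers 84 lay below zero (median -0.08), and with library size alone 80 did (median -0.09). The medians in KO:HET were -0.05 and -0.07, beside -0.01 over all genes. Between the wild-type livers of the lines, where 12% of all genes differed, Cox7a2l (0.25 ± 0.06, SE) and Ndufaf4 (0.37 ± 0.11) were higher and mt-Co2 (-0.36 ± 0.12) lower in KO:WT than in DN:WT.

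Complex IV and the ATP synthase have subunits in several isoforms. Liver held the ubiquitous or liver forms Cox4i1, Cox6a1, Cox6b1, Cox7a2, Cox7b and Cox8a, while Cox4i2, Cox6a2, Cox6b2, Cox7a1, Cox7b2 and Cox8b lay below the minimum. Log2 changes in DN:HOM were -0.21 for Cox4i1, -0.43 for Cox6a1, -0.34 for Cox6b1, -0.19 for Cox7a2, -0.56 for Cox7b and -0.52 for Cox8a, all past the threshold, but with library size alone Cox4i1, Cox6b1 and Cox7a2 turned to 0.22, 0.09 and 0.23 and Cox6a1 to 0.00, and Cox7b (-0.13) and Cox8a (-0.09) no longer passed, and Cox7a2 lost its call in the fit of 48 livers. In KO:HOM Cox6a1 (-0.22), Cox7b (-0.29) and Cox8a (-0.25) passed, and Cox4i1 (-0.18), Cox6b1 (-0.17) and Cox7a2 (-0.20) did not, but Cox7b alone passed over all 48 livers and none did with library size alone. Cox7a2l, a relative of Cox7a2, lies at chr17:83765970-83824759 and stood at 68.1, 74.2 and 83.5 CPM in DN:WT and 69.8, 81.9 and 92.3 CPM in DN:HOM, a change of 0.12 ± 0.06 (SE, adjusted p = 0.101, edgeR), but with library size alone it was higher by 0.55 (adjusted p = 1.95e-10, edgeR). Its effect was higher in the knock-in than in the knockout by 0.23 ± 0.09 (SE, adjusted p = 0.0352, edgeR), and by 0.55 with library size alone, and its KO:WT livers stood above its DN:WT livers.

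Ndufa4, now counted with complex IV, was at -0.29 in DN:HOM and -0.19 in KO:HOM, both past the threshold, though in KO:HOM neither over all 48 livers nor with library size alone, and its relative Ndufa4l2 at -0.45 and -0.48 was not past it in either. The c-ring genes Atp5mc1, Atp5mc2 and Atp5mc3, which encode the same mature protein, changed by -0.44, -0.21 and -0.55 in DN:HOM and by -0.27, -0.24 and -0.23 in KO:HOM, where Atp5mc3 did not pass, and with library size alone Ndufa4 and Atp5mc2 turned to 0.14 and 0.22 in DN:HOM and none of the c-ring genes was lower in either line. Cox5b-ps, a Cox5b pseudogene that the annotation lists as protein-coding, differed between the lines at -0.80 ± 0.23 (SE; adjusted p = 0.00617, 0.0642 over all 48 livers and 0.0738 with library size alone, edgeR), at a level of 2.02 to 5.02 CPM over the homozygous and wild-type knock-in livers. Since near-identical copies can split their reads, Atp5mc2 (87.5% of windows shared with other places), Cox7c (66.7%), Atp5mc1 (65.4%), Ndufs5 (60.9%), Atp5mg (56.5%), Ndufb4 (37.5%), Cox5b-ps (30%), Cox7a2l (26.7%), Ndufab1 (22.6%), Cox5b (22.2%) and Uqcrb (21.7%) are uncertain. The median DN:HOM change was -0.44 over these 11 and -0.47 over the 73 with copies in under 5%.

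The nuclear members were also ordered by transcript length. Of the 29 shortest nuclear members (371 to 783 bases) 15 were lower in KO:HOM (median -0.24) and of the 29 longest (1735 to 7389 bases) 4 were (median -0.13), while in DN:HOM 27 and 24 were lower, with medians of -0.39 and -0.53. The difference between short and long members was not tested. Over all protein-coding genes tested in the same length ranges the medians were -0.13 and -0.01 in KO:HOM, with 17.7% and 8.00% lower, and 0.00 and 0.02 in DN:HOM, with 30.5% and 29.9% lower. The part of length in the KO:HOM result was not tested. On CPM per kilobase of transcript, a scale for comparing levels between genes, Atp5f1b (539), Cox4i1 (471) and Cox6c (462) stood highest among nuclear members and Ndufb2 lowest at 1.01.

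Genes around the chain, which are not members, gave the setting, and the counts of the lists below stand beside 30% lower and 29.1% higher in DN:HOM and 7.87% lower in KO:HOM over all genes tested. With library size alone these shares were 11.1% and 59.1% in DN:HOM and 2.78% lower in KO:HOM. Cyc1 and Cycs, encoding cytochromes c1 and c, changed by -0.68 and -0.54 in DN:HOM, both past the threshold, and by -0.19 and -0.22 in KO:HOM, where Cycs alone passed. Of 10 further complex I assembly genes 10 were lower in DN:HOM (Ecsit -0.87, Foxred1 -0.74) and 1 in KO:HOM, of 20 complex IV assembly genes 12 (Sco2 -1.16, Taco1 -0.92) and 1, and of 8 assembly genes of complexes II and V 5 (Fmc1 -0.91, Tmem70 -0.56) and 1, so that in KO:HOM these lists lay near the share of all genes. The lower genes of the 3 lists in DN:HOM numbered 2, 3 and 2 with library size alone. Of 18 genes taken to reflect mitochondrial mass 13 were lower and 1 higher in DN:HOM (5 and 7 with library size alone), with citrate synthase Cs at -0.75 and -0.39 in KO:HOM and the chaperonin Hspd1 at -0.72, and of the carriers of ATP and ADP Slc25a5 fell by 0.62 and Slc25a4 rose by 2.22. Slc25a4 stood at 3.0 to 6.51 CPM in DN:WT and at 17.3 to 25.7 CPM in DN:HOM.

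Among 16 genes of mitochondrial RNA processing and stability 10 were lower in DN:HOM (4 with library size alone, and 6 higher) and 0 in KO:HOM. At an unadjusted p below 0.05 (edgeR) 5 passed in KO:HOM in either direction, as did 3390 of 10032 genes tested with transcripts of 1735 to 7389 bases. Hsd17b10, a subunit of the mitochondrial RNase P, had the largest change of that list, from 198 to 229 CPM in DN:WT to 49.2 to 73.9 CPM in DN:HOM, a log2 change of -1.77 ± 0.11 (SE) against 0.14 ± 0.10 in KO:HOM. Lrpprc, which stabilises mitochondrial mRNA, stood at -0.62 ± 0.08 (SE). Of 10 genes maintaining mitochondrial DNA 7 were lower and 1 higher in DN:HOM (1 and 4 with library size alone), and in KO:HOM Polg2 (-0.41) and Twnk (-0.30) were lower. Of 12 regulators of mitochondrial biogenesis 7 were lower and 1 higher. Tfam, the factor that packages mitochondrial DNA and activates its promoters, changed by -0.42 ± 0.08 (SE), Ppargc1b by -0.75 ± 0.24 and in KO:HOM by -0.71 ± 0.22, and the values of Ppargc1a (0.36 ± 0.20) and Nrf1 (0.23 ± 0.11) did not pass. With library size alone none of the 12 regulators was lower and 7 were higher, near the 59.1% of all genes that were higher.

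Of 8 genes of uncoupling and substrate choice, Ucp2 rose in both lines (1.91 in DN:HOM and 1.46 in KO:HOM, log2) and Pdk1 fell in both (-2.46 and -0.54). Of 77 mitochondrial ribosomal protein genes 44 were lower in DN:HOM (median -0.24) and 14 in KO:HOM. With library size alone 3 were lower and 44 higher in DN:HOM (median 0.19), where 11.1% and 59.1% of all genes were, and 3 were lower in KO:HOM, where 2.78% were. Of 85 cytosolic ribosomal protein genes 74 were higher in DN:HOM (median 0.38; 82 with library size alone, median 0.81) and 7 lower in KO:HOM, near the share of all genes.

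Markers of the cell types making up the tissue differed between the same groups. Summed CPM of the 10 hepatocyte markers lay at 72585 to 88876 in DN:WT and at 38028 to 49509 in DN:HOM, with 8 of 10 lower, and at 85491 to 107108 in KO:WT and 66253 to 88116 in KO:HOM, with 5 lower. The hepatocyte markers were all present in each group. Summed macrophage markers rose from 190 to 345 CPM in DN:WT to 1198 to 1931 CPM in DN:HOM, and from 120 to 342 CPM in KO:WT to 505 to 2416 CPM in KO:HOM. DN:HET livers held hepatocyte sums of 52652 to 84507.5 CPM (median 74738, against 80696 in DN:WT). Their macrophage sums were 235 to 2571 CPM (median 454, against 254), and both ranges overlapped those of DN:WT. Cholangiocyte markers went from 30 to 70.5 CPM in DN:WT to 718 to 1066 CPM in DN:HOM, stellate cell and fibroblast markers from 118 to 175 CPM to 581 to 786 CPM, and neutrophil markers from 3.34 to 6.54 CPM to 31 to 82.0 CPM, with no read of Ly6g in DN:WT and KO:WT. T cell markers went from 2.23 to 5.02 CPM to 4.98 to 8.63 CPM. Endothelial markers went from 108 to 149.9 CPM to 72.1 to 131.5 CPM, with 4 of 6 lower and 1 higher, erythroid markers from 377 to 442 CPM to 98.6 to 461 CPM, with 2 of 5 lower, and B cell markers from 10.5 to 53.1 CPM to 8.74 to 17.6 CPM, with 1 of 5 lower, all with overlapping ranges. In KO:HOM T cell markers stood at 7.18 to 28.8 CPM against 2.32 to 6.52 CPM in KO:WT, and the ranges of the cholangiocyte, stellate cell, neutrophil, endothelial, erythroid and B cell sums overlapped. Their part in the lower level of the members was not tested, and in whole liver fewer hepatocytes and less RNA per hepatocyte cannot be told apart.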

How the data were processed

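Stranded libraries of polyadenylated RNA from 48 mouse livers were analysed. Per the labels, the authors aligned the reads with STAR 2.5.0a to GRCm39, and the deposited values are raw counts of uniquely mapped reads per gene. The counts of the strand that matched the library were used, and the 4 summary lines that name no gene, 24.0% to 35.0% of the totals, were left out of library sizes and tests. Of 55416 gene identifiers, 54749 were matched to the annotation for names and positions.

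All 6 genotype groups were fitted in 1 model of group means with edgeR 4.0.16 (filterByExpr, TMM scaling, quasi-likelihood test), with Benjamini-Hochberg adjustment over the 15711 genes tested and a threshold of 0.05. The 48 livers are separate animals, so p-values measure the spread between animals. The libraries labelled DN:WT animal 10 and DN:HOM animal 12 were set aside because they carried the pattern of the other genotype and are not among the livers in the study's source data, and all results were repeated over 48 livers. DESeq2 1.42.0, upper-quartile scaling, no filter, unstranded counts, only the groups compared, no mitochondrial reads in the library size and no libraries under 10000000 reads were alternatives. Scaling by library size alone was chosen after seeing the data. CPM of single genes are TMM-scaled, log2 CPM used a prior count of 2, and scores over members were described without a test.

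The genes named by rule are all mitochondrial members, the 5 largest rises and falls past the threshold in each homozygous comparison and in their difference, complex II, isoform families, Atp5if1, up to 5 genes per other list, of which 1 is not reported here, and Nr1h3. Ndufs1, Ndufa10, Ndufs4, Ndufa2, Ndufb4, Ndufb2, Ndufaf1, Ndufaf4, Uqcrh, Uqcrc1, Atp5f1a and Atp5f1b, and genes given for levels or copies alone, were named after their values were seen. Members and lists were chosen with earlier results of these data known. Copies were sought as exact matches of 100-base windows, taken every 10 bases of each transcript. On simulated counts of 15354 genes, 98 were changed by 0.5 and 99 by 1 (log2). The test of DN:HOM against DN:WT recovered 54.1% and 76.8% of these, and called 8 of 15157 unchanged genes. How the test performs where as many genes differ as between these livers was not tested. Sequences of promoters are from RefSeq (GRCm38.p6).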

Additional observations from a re-analysis of the deposited data

Results flagged for a closer look

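In the effect of homozygosity, 42 of all 102 members differed between the lines by the test of the difference itself (edgeR, 46 livers), where 18.3% of all genes were relatively lower and 16.5% higher in the knock-in. The values given here, as the log2 change in the knock-in minus that in the knockout, are those of the 25 that the text names for their changes, 7 of which were named after their values were seen, so this count says nothing of the other members. Of these, 8 also passed over all 48 livers (mt-Nd5, mt-Co2, Sdha, Sdhb, Ndufs1, Ndufaf1, Uqcrc1 and Atp5f1a) and 15 with library size alone. The mitochondrial values were -0.35 for mt-Nd1, -0.53 for mt-Nd2, -0.64 for mt-Nd4, -1.12 for mt-Nd4l, -0.84 for mt-Nd5, -0.61 for mt-Nd6, -0.59 for mt-Cytb, -0.71 for mt-Co1, -0.72 for mt-Co2, -0.60 for mt-Co3, -0.73 for mt-Atp6 and -0.86 for mt-Atp8. The nuclear values were -0.77 for Sdha, -1.0 for Sdhb, -0.34 for Sdhc, -0.80 for Cox5b-ps, -0.69 for Ndufs1, -0.67 for Ndufa10, -0.65 for Ndufaf1, -0.53 for Ndufaf4, -0.61 for Uqcrc1, -0.69 for Atp5f1a, -0.43 for Atp5f1b, 0.23 for Cox7a2l and 0.94 for Atp5if1.

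A single liver stood apart from the rest of its group in 2 of 66 groups of values examined, where chance gives about 1 in 20. Atp5if1 was at 8.33 CPM in KO:HET animal 15, below the other 7 livers, and mt-Cytb was at 11230 CPM in KO:WT animal 14, below the other 7 livers.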

How the results depend on the processing

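No paired analysis was possible because the groups compared share fewer than 2 animal numbers. Over all 48 livers the mitochondrial median in DN:HOM was -0.66, the lower nuclear members in KO:HOM numbered 10, the higher ones 0 and the lower mitochondrial ones 0, and the difference of effects was more negative in 9 nuclear and 2 mitochondrial members and more positive in 0. The mitochondrial members that differed between KO:WT and DN:WT then numbered 0. With library size alone, chosen after seeing the data, lower and higher nuclear members numbered 14 and 12 in DN:HOM (median -0.04, mitochondrial median -0.45), lower nuclear members numbered 4 in KO:HOM, and the difference was lower in 8 and higher in 14 nuclear members (median reversed to 0.06) and lower in 6 mitochondrial members (median -0.32), with 5 nuclear members differing between the wild-type groups. On that scale the DN:HOM changes of Sdhc, Cox4i1, Cox6a1, Cox6b1, Cox7a2, Ndufa4, Atp5mc2 and Uqcrh reversed to 0.04, 0.22, 0.00, 0.09, 0.23, 0.14, 0.22 and 0.23, and those of Ndufs4, Ndufa2, Ndufb4 and Ndufb2, not past the threshold in the main scaling, to 0.28, 0.25, 0.24 and 0.20. Upper-quartile scaling gave 15 lower nuclear members in KO:HOM and 2 higher in DN:HOM, and DESeq2 gave 2 higher in DN:HOM. Without a filter on low counts 16 nuclear members were lower in KO:HOM, 1 had a higher difference, and 1 nuclear and 0 mitochondrial members differed between the wild-type groups. Unstranded counts gave 0 higher in KO:HOM and 1 higher difference, and fits of only the groups compared gave 2 lower mitochondrial members in KO:HOM and 1 higher difference. The cause of these shifts was not tested. For the members named for their changes in the homozygous comparisons or their difference, 624 of 730 values kept direction and side of the threshold, 94 kept direction but passed no longer and 12 reversed. Leaving mitochondrial reads out of the library size applies to nuclear members only. Depth was at least 5332897 reads per liver, and the members with the fewest reads were Ndufa4l2, Cox5b-ps, Ndufb2 and Ndufaf5, at mean levels from 1.37 to 4.71 CPM.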
